A study of Mus musculus with 8 samples.

Results

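Insulin lowers blood glucose in part by acting on the liver through a short chain of proteins. The insulin receptor, encoded by Insr, phosphorylates the substrates IRS1 and IRS2, which recruit phosphoinositide 3-kinase and so switch on the kinases AKT1 and AKT2. AKT phosphorylates the transcription factors FOXO1 and FOXO3 and keeps them out of the nucleus, and in the fasted liver, where insulin is low, FOXO1 enters the nucleus and drives genes such as Igfbp1 and Irs2. Igfbp1, Igfbp2 and Igfbp4 encode secreted proteins that bind insulin-like growth factors in blood and tissue and limit their access to receptors. AKT and FOXO proteins are controlled largely by phosphorylation, which a measurement of mRNA does not show.

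The 10 genes described here, Insr, Irs1, Irs2, Akt1, Akt2, Foxo1, Foxo3, Igfbp1, Igfbp2 and Igfbp4, were chosen by symbol as the core of this pathway together with 3 IGF binding proteins made in liver. All 10 were among the 11784 genes of the deposited table. The livers were those of male C57BL/6J mice, 4 on a Control diet (TD.140711) and 4 on a Low AA diet (TD.140712), both amino acid defined, in which the Low AA diet carries fewer of its calories as amino acids and more as carbohydrate. The diets were begun at 9 weeks of age and continued for 4 months, in group housed mice, and all were killed after an overnight fast of about 16 hours, so every value below is from fasted liver. Each liver was 1 library, and mice are named by the codes of the labels (F, Control; H, Low AA). The values are scaled read counts, whole numbers that the authors had already scaled between mice, and they summed to between 27876664 and 30799385 per mouse.

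Hepatocyte markers were abundant in all libraries, with 7 of 8 listed and a summed scaled read count of 2157767 to 2608158. The other cell types of liver were present at far lower summed levels, such as 7977 to 10000 in Low AA mice and 7801 to 10244 in Control mice for 8 of 8 stellate markers, 4532 to 6323 over both diets for 7 of 7 endothelial markers and 5153 to 7583 for 7 of 7 macrophage markers. The 4 of 5 cholangiocyte markers listed summed to 826 to 1316 in Low AA mice and 1124 to 2265 in Control mice. Control mouse F2212 stood apart, with a scaled read count of 36587 for Cela1, the 1 of 6 pancreatic markers listed, against 130 to 288 in the other mice, and with a summed level of 27464 for 4 of 5 blood markers, at the top of the Control range of 7206 to 27464 and above the Low AA range of 9211 to 13541. No marker passed adjustment in limma, but lists differed in direction, with estimates below 0 for 7 of 8 stellate, 4 of 4 cholangiocyte and 4 of 4 blood markers and above 0 for 7 of 7 macrophage markers. Over all genes 50.5% of estimates were above 0. The median log2 difference was -0.62 for cholangiocyte, -0.49 for blood and 0.22 for macrophage markers. At an unadjusted p under 0.05 in limma were 2 of 4 cholangiocyte, 2 of 4 blood, 1 of 8 stellate and 1 of 7 macrophage markers. Over all genes 11.8% were at that p. Of the blood markers 1 of 4 did not overlap between the diets, where 6.81% of all genes did not. Col1a1, a collagen made by stellate cells, had 37 to 69 in Low AA and 70 to 147 in Control mice, without overlap, as in 6.81% of all genes. It was the 1 of 8 stellate markers without overlap and was picked after values were seen. Its log2 difference was -1.07 (limma adjusted p = 0.148), against a median of -0.20 for the stellate markers. The part of these cells in the members' values was not tested. Of 5 adipocyte markers 2 were listed, with summed levels of 2259 to 5970 over both diets. In whole liver, fewer cells of a type and less RNA per cell cannot be told apart.

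FOXO1 acts on the Igfbp1 promoter through a short insulin response element. Its core letters CAAAACA were searched on both strands in the RefSeq promoter windows of GRCm38.p6, which run from 250 bases before to 50 after each transcription start. A related forkhead motif with the letters GTAAACA was searched in the same way. No member held both motifs. Of the members, 9 had a window, 14 windows in all, and Insr was not matched. The insulin response element core was present in 3 of the 14 windows, 1 each of Igfbp1, Irs1 and Irs2, against 6.28% of all 32851 windows. This core is that of the Igfbp1 element itself, so its match in Igfbp1 was set in advance. It was also chosen after values were seen, and a link between the motif and the diets was not tested. The forkhead motif was present in 1 of the 14 windows, one of Akt1, against 3.65% of all windows. The windows of Igfbp1 (chr11:7197537-7197836, plus strand), Irs1 (chr1:82291390-82291689, minus strand) and Irs2 (chr8:11008880-11009179, minus strand) are shown 5′ to 3′ because these 3 genes have the largest differences between the diets among the members, with the matches to the insulin response element core in capitals (read on the other strand in Irs1 and Irs2).
Igfbp1: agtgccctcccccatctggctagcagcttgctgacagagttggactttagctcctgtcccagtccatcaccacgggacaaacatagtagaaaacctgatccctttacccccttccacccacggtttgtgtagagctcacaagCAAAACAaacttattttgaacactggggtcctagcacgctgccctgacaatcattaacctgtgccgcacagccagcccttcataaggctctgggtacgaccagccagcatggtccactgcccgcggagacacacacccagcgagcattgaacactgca
Irs1: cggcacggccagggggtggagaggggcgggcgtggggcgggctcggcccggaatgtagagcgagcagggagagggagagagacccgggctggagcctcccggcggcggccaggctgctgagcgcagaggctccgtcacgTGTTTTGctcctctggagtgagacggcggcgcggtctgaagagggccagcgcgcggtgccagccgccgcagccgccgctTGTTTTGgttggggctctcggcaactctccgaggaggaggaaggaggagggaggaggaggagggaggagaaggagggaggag
Irs2: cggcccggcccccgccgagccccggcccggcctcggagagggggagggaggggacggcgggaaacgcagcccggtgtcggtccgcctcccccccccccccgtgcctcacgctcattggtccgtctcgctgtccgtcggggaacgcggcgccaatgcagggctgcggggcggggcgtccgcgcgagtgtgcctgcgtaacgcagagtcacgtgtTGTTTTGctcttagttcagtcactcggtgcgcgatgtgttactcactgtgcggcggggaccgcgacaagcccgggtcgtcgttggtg
The match in Igfbp1 runs from 108 to 102 bases before the start, that in Irs2 from 37 to 31 bases before it, and the 2 in Irs1 from 111 to 105 and from 32 to 26 bases before it. These are RefSeq starts. The Irs2 window lies wholly upstream of the gene as GENCODE places it (chr8:10984681-11008458), so its match is farther from the GENCODE start. A match of letters describes the window and is no measure of binding.

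The Low AA and Control diets were compared to ask whether a diet low in amino acids changes the hepatic transcriptome. None of the 10 members differed between the diets at an adjusted p under 0.05 in limma, where 0.399% of all 11784 genes did, 0.102% higher and 0.297% lower on Low AA, and adjusted p values of the members ran from 0.341 to 0.995. At an unadjusted p under 0.05 there were 3 of 10 members, Irs1, Igfbp1 and Igfbp2, against 11.8% of all genes. That count was 2 without the mean-variance trend, with robust moderation or among the 8000 genes of highest mean, and with a mouse left out it ran from 0 to 3. It was 0 without H828 (10.1% of all genes), and 1 without H1126 (9.26%), H817 (7.84%) or F2212 (12.4%). In none of the 10 did the 4 Low AA mice lie wholly apart from the 4 Control mice, as they did in 6.81% of all genes. The estimated differences were above 0, that is higher on the Low AA diet, for 8 members and below 0 for Igfbp4 and Akt2, where 50.5% of all genes were above 0. The signs of Akt1, Akt2 and Foxo3 turned with a mouse left out. The median of the 10 members was 0.18 on the log2 scale, against 0.0023 over all genes. With a mouse left out it ran from 0.079 without F2212 to 0.30 without F7111. Differences are of log2(value + 1) throughout, Low AA minus Control, and their intervals are 95% confidence intervals from limma.

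**Figure D1:**
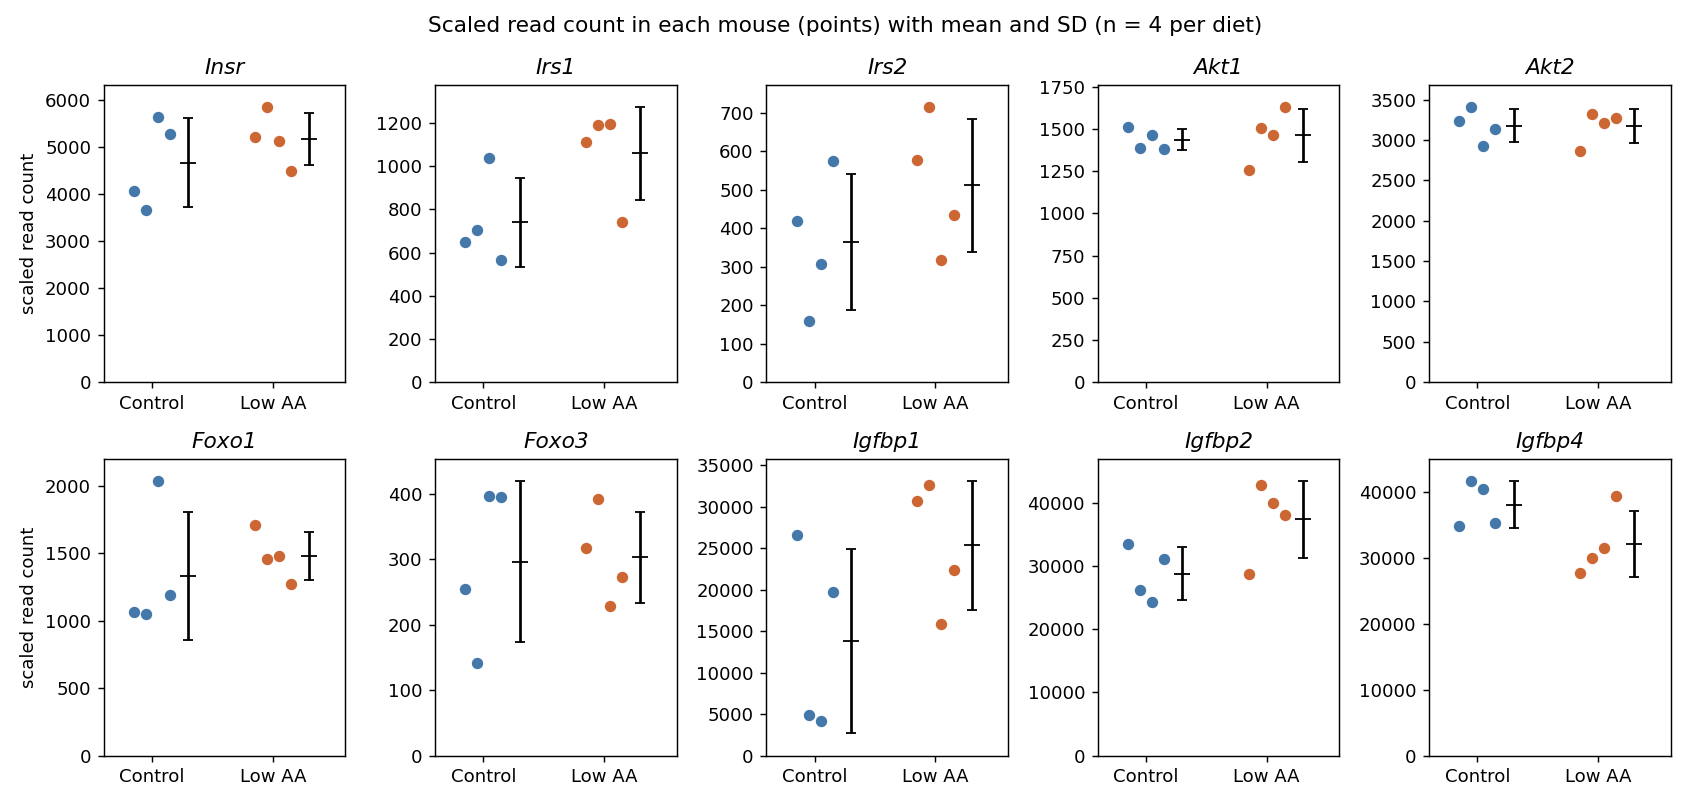
Scaled read count (vertical axes, each from 0) of the 10 genes in each mouse, with points for mice and a black bar for the mean and SD of each diet (n = 4). Of 4 Low AA mice 3 lie above all Control mice for Irs1 and Igfbp2, and for Igfbp1 the Control mice split between 4130 and 4873 on one side and 19707 and 26532 on the other.

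Insr, on chr8:3122061-3279617 of GRCm38 with 21 exons in its longest transcript, encodes the receptor itself. Its scaled read counts were 5202, 5851, 5130 and 4484 in Low AA mice H1126, H828, H817 and H1315, and 4072, 3663, 5640 and 5281 in Control mice F129, F2212, F7111 and F2110. The diets overlapped through most of their range, and only 1 Low AA mouse lay above the highest Control mouse. The means of Insr were 5167 ± 559 for Low AA and 4664 ± 946 for Control (SD, n = 4 mice per diet), a log2 difference of 0.16 (standard error 0.15, interval -0.17 to 0.50, limma adjusted p = 0.744). The interval corresponds to a fold of 0.89 to 1.41. Without F2212, the lowest mouse, the log2 difference of Insr was 0.055, and without F7111 it was 0.26.

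Irs1 (chr1:82233101-82291416, 2 exons) and Irs2 (chr8:10984681-11008458, 2 exons) encode the receptor's main substrates. Irs1 had scaled read counts of 1113, 1191, 1194 and 742 in H1126, H828, H817 and H1315, and of 651, 706, 1039 and 565 in F129, F2212, F7111 and F2110. Of the Low AA mice 3 were above all Control mice, while H1315 lay among the Control mice and Control mouse F7111 lay above H1315. The means were 1060 ± 215 and 740 ± 207 (SD, n = 4 mice per diet), and the log2 difference of 0.53 (standard error 0.21, interval 0.071 to 0.99) did not pass adjustment over all genes (limma adjusted p = 0.341). An exact permutation test over the 8 mice, two-sided, gave p = 0.0571 for Irs1, where the smallest p that 4 against 4 allow is 0.0286. Without H1315 the log2 difference of Irs1 was 0.69 (limma adjusted p = 0.175) and without F7111 it was 0.71 (limma adjusted p = 0.144). The diets were then apart, as 12.7% and 12.2% of all genes were without those mice. The mouse left out was picked because it overlapped the other diet, here and for Foxo1, Igfbp2 and Igfbp4 below. The share over all genes drops the same mouse from every gene. The share of genes apart without a mouse picked for each gene would be the like one and was not computed. With the other mice left out in turn the log2 difference of Irs1 ran from 0.41 without F2110 to 0.52 without F2212. The unadjusted limma p was above 0.05 without H1126, H828, H817, F129 or F2110.

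Irs2, the substrate whose mRNA FOXO1 induces in fasting, varied more. Its scaled read counts were 578, 716, 318 and 435 in H1126, H828, H817 and H1315, and 420, 158, 306 and 574 in F129, F2212, F7111 and F2110. Both diets held high and low mice, with the lowest value, that of F2212, 4.53-fold under the highest, that of H828. The means were 512 ± 173 for Low AA and 364 ± 176 for Control (SD, n = 4 mice per diet), with a log2 difference of 0.57 (standard error 0.37, interval -0.25 to 1.39, limma adjusted p = 0.611). Without F2212 the log2 difference of Irs2 was 0.22.

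Akt1 (chr12:112653821-112674884, 14 exons) and Akt2 (chr7:27591552-27640826, 14 exons), the kinases that carry the signal onward, were the steadiest members. Akt1 had 1255, 1504, 1467 and 1632 in the Low AA mice, in the order used above, and 1512, 1388, 1468 and 1382 in the Control mice. Akt2, the form most tied to glucose control, had 2861, 3327, 3209 and 3278 in the Low AA mice and 3234, 3410, 2921 and 3134 in the Control mice. The Control range of Akt1 lay within its Low AA range, and for Akt2 F2212 alone was above the Low AA mice. The log2 differences were 0.021 for Akt1 (interval -0.20 to 0.25, limma adjusted p = 0.961) and -0.003 for Akt2 (interval -0.21 to 0.20, limma adjusted p = 0.995). In fold, the intervals ran from 0.868 to 1.19 for Akt1 and from 0.866 to 1.15 for Akt2, and the sign of Akt2 turned with equal column totals or medians.

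Foxo1 (chr3:52268336-52353221, 3 exons) and Foxo3 (chr10:42181841-42276755, 4 exons) encode the forkhead factors that AKT restrains. Foxo1 had 1709, 1457, 1476 and 1275 in H1126, H828, H817 and H1315, and 1063, 1047, 2037 and 1187 in F129, F2212, F7111 and F2110. The 4 Low AA mice all lay above 3 of the Control mice, and F7111 alone was above all of them. With F7111 the log2 difference was 0.20 (standard error 0.20, interval -0.25 to 0.65, limma adjusted p = 0.774), and without it 0.42 (limma adjusted p = 0.174), with the diets then apart, as 12.2% of all genes were without that mouse. F7111 was picked because it overlapped the other diet, as for Irs1. Without F2212 the difference of Foxo1 was 0.10, without F129 it was 0.11 and without H1126 it was 0.13. Foxo3 had 318, 392, 229 and 273 in the Low AA mice and 254, 141, 397 and 395 in the Control mice. The Foxo3 values of the Low AA mice all lay inside the Control range, and the log2 difference was 0.12 (interval -0.57 to 0.81, limma adjusted p = 0.928), or -0.20 without F2212, the lowest mouse. Leaving out a mouse moved it over the range from -0.20 to 0.30.

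Igfbp1, on chr11:7197782-7202546 with 4 exons, encodes the binding protein that insulin suppresses most directly, and its mRNA is a usual mark of fasting and of FOXO1 activity in liver. It had 30720, 32575, 15810 and 22357 in H1126, H828, H817 and H1315, and 26532, 4873, 4130 and 19707 in F129, F2212, F7111 and F2110. Control mice F2212 and F7111 were low, while F129 and F2110 lay within the range of the Low AA mice. The means were 25366 ± 7768 and 13810 ± 11108 (SD, n = 4 mice per diet), with a log2 difference of 1.27 (standard error 0.56, interval 0.023 to 2.51, limma adjusted p = 0.416). The estimate is a 2.41-fold higher level, with an interval from 1.02-fold to 5.70-fold, and the exact permutation test over the 8 mice, two-sided, gave p = 0.2. It was 0.92 on the log2 scale without F2212, 0.84 without F7111 and 1.73 without F129, and in no such fit did Igfbp1 pass.

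Igfbp2, on chr1:72824503-72852474 with 4 exons, encodes a binding protein secreted by liver. Its scaled read counts were 28771, 42839, 39967 and 38096 in H1126, H828, H817 and H1315, and 33429, 26177, 24381 and 31071 in F129, F2212, F7111 and F2110. Of the Low AA mice 3 were above every Control mouse and H1126 lay among them. The means were 37418 ± 6086 and 28764 ± 4203 (SD, n = 4 mice per diet), with a log2 difference of 0.38 (standard error 0.15, interval 0.038 to 0.71, limma adjusted p = 0.369). The exact permutation test over the 8 mice, two-sided, gave p = 0.0857 for Igfbp2, and without H1126 the log2 difference was 0.50 and the diets were apart, as 9.38% of all genes were without that mouse (limma adjusted p = 0.269). H1126 was picked because it overlapped the other diet, as for Irs1. With the other mice left out in turn the log2 difference of Igfbp2 ran from 0.30 without F7111 to 0.45 without F129. The unadjusted limma p was above 0.05 without H828, H817, H1315, F2212 or F7111.

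Igfbp4, on chr11:99041244-99054392 with 4 exons, encodes an inhibitory binding protein that proteases of the pappalysin family cut. With Akt2 it was one of the members with an estimate below 0. The scaled read counts were 27781, 29965, 31529 and 39375 in H1126, H828, H817 and H1315, and 34840, 41750, 40512 and 35383 in F129, F2212, F7111 and F2110. Of the Low AA mice 3 were below every Control mouse, and H1315 was among the Control mice. The means were 32162 ± 5048 and 38121 ± 3519 (SD, n = 4 mice per diet), with a log2 difference of -0.25 (standard error 0.13, interval -0.54 to 0.035, limma adjusted p = 0.499). Without H1315 the difference was -0.35 and the diets were apart, as 12.7% of all genes were without that mouse (limma adjusted p = 0.253). H1315 was picked because it overlapped the other diet, as for Irs1. With the other mice left out in turn the log2 difference of Igfbp4 ran from -0.19 without H1126 to -0.29 without F129.

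**Figure D2:**
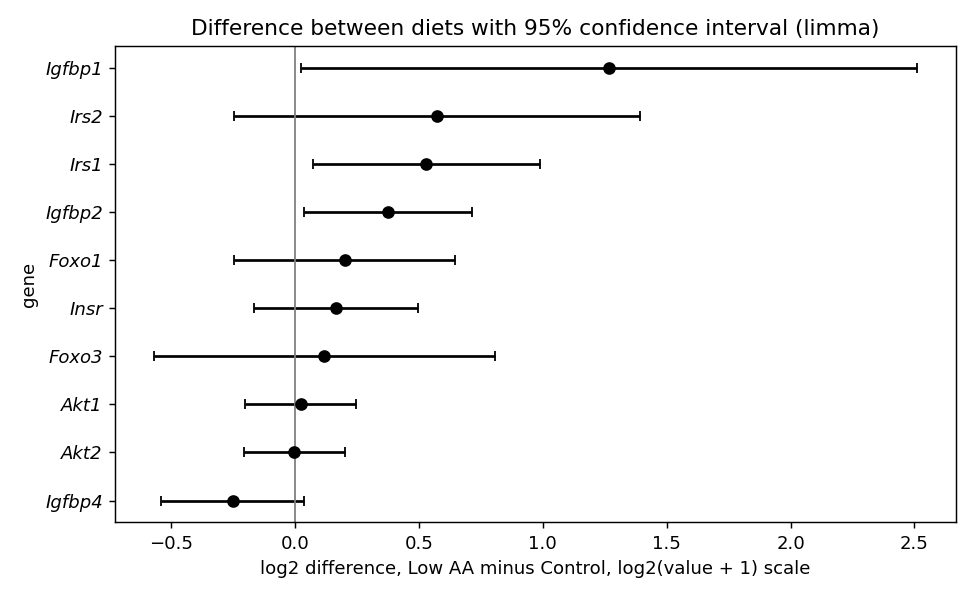
Log2 difference between the diets (horizontal axis, Low AA minus Control on the log2(value + 1) scale) for each gene, with points for the limma estimate and bars for the 95% confidence interval. The interval of Igfbp1 is the widest, from 0.023 to 2.51, those of Akt1 and Akt2 are the narrowest and sit around 0, and no gene passed adjustment over all genes.

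The members differed widely in how much mice on the same diet varied. The residual SD within diets, on the log2 scale, was 1.03 for Igfbp1, 0.67 for Irs2 and 0.55 for Foxo3, against a median of 0.22 over all genes. Only 0.569% of all genes varied more than Igfbp1, 2.65% more than Irs2 and 4.88% more than Foxo3. At the other end, 86.7% of all genes varied more than Akt1, with a residual SD of 0.12, and 93.7% more than Akt2, with 0.096. From the lowest to the highest mouse Igfbp1 spanned 7.89-fold and Akt2 1.19-fold, against a median of 1.59-fold over all genes. Most of the span of Igfbp1 lay within the Control diet, where the SD was 80.4% of the mean, against 30.6% for Low AA, and the difference between these spreads was not tested.

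Control mouse F2212, the one with high Cela1 and blood markers, was the lowest of the 8 mice for Insr, Irs2, Foxo1 and Foxo3 and the highest for Akt2 and Igfbp4. The share of all genes in which F2212 was the lowest or the highest mouse was not computed, so this is not shown to be particular to the members. The part of those markers in these values was not tested. Without F2212 the member left with an unadjusted p under 0.05 was Irs1, and 0 of 10 passed adjustment.

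Per kilobase of the longest GENCODE transcript, the binding proteins stood far above the signalling genes. Igfbp2 was first, with a median of 24675 scaled read counts per kb over the 8 mice, then Igfbp1 with 13791 and Igfbp4 with 9165. Igfbp2 was above Igfbp1 in 8 of 8 mice and Igfbp1 above Igfbp4 in 6 of 8, although the ranges over mice overlapped for both pairs, with Igfbp1 running from 2708 to 21361 per kb. With the union of exons as the length, Igfbp2 was above Igfbp1 in 7 of 8 mice. Then came Akt2 at 709, apart from Igfbp4 and, by this length, from Insr, and Insr at 552 and Akt1 at 546, which did not differ beyond their spread, with Insr higher in 5 of 8 mice. Foxo1 at 158, Irs1 at 97.4, Irs2 at 67.6 and Foxo3 at 43.2 per kb closed the order, each overlapping the next in its range over mice. The order of all 10 was the same with the union of exons as the length, but Akt2, at 401 to 478 per kb, then overlapped Insr, at 266 to 426.

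**Figure D3:**
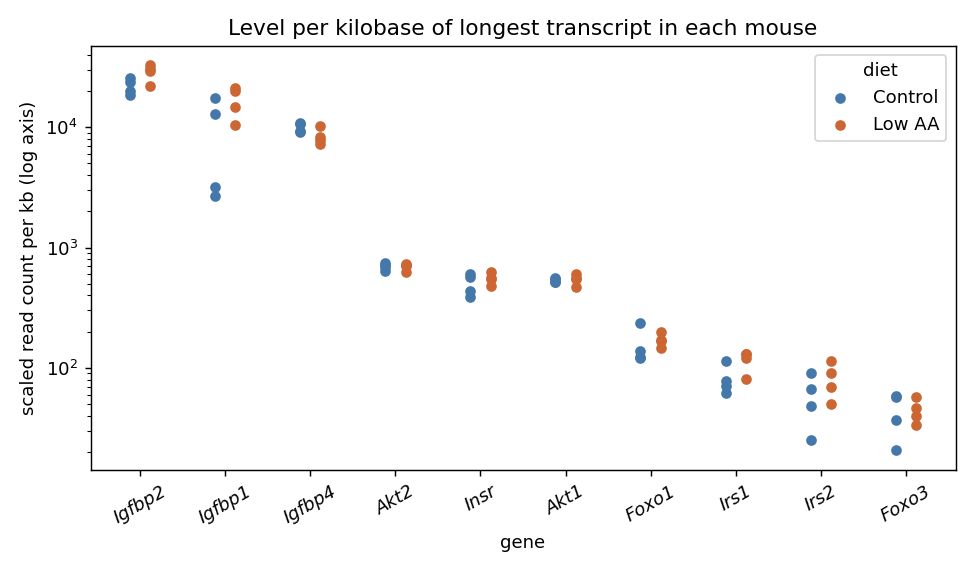
Scaled read count per kilobase of the longest transcript (vertical log axis) for the 10 genes in order of their median, with a point for each mouse coloured by diet. The 3 binding proteins lie highest, with medians of 9165 to 24675, Akt2, Insr and Akt1 follow at 546 to 709, and Foxo3 is lowest at 43.2.

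A ratio between 2 genes in the same liver does not depend on the scaling if all genes of a mouse were scaled by the same factor. It was taken as log2 of the ratio of scaled read counts and is given without a test. For Igfbp4 over Igfbp2 the ratio was 0.966, 0.699, 0.789 and 1.03 in H1126, H828, H817 and H1315 and 1.04, 1.59, 1.66 and 1.14 in F129, F2212, F7111 and F2110. All 4 Low AA mice were thus under all 4 Control mice, with H1315 at a log2 ratio of 0.048 just under F129 at 0.060. The ratio sets a member with an estimate below 0 over a member with an estimate above 0, which favours a gap. Of single genes 6.81% did not overlap, and the share of gene pairs that do not overlap was not computed. The mean log2 ratio was -0.22 ± 0.26 for Low AA and 0.41 ± 0.34 for Control (SD, n = 4 mice per diet), a difference of -0.63.

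The other 5 ratios overlapped between the diets. Igfbp1 over Igfbp2 had mean log2 ratios of -0.60 ± 0.60 for Low AA and -1.49 ± 1.16 for Control (SD, n = 4 mice per diet). Irs2 over Irs1 had means of -1.09 ± 0.55 and -1.13 ± 1.01, and single mice ranged from a ratio of 0.224 in F2212 to 1.02 in F2110. Akt2 over Akt1 ran from 1.99 to 2.46 over all 8 mice. Foxo1 over Foxo3 differed between the diets by 0.082 and Insr over Irs2 by -0.41, with SDs of 0.34 to 0.67 within the diets.

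**Figure D4:**
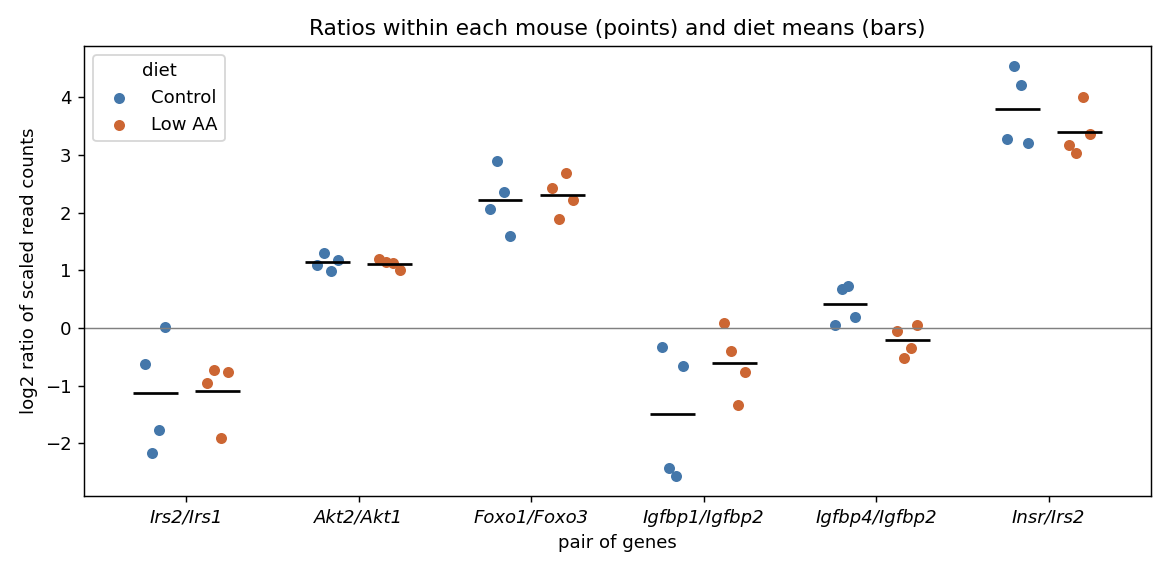
Log2 ratio of scaled read counts for 6 pairs of genes (vertical axis) in each mouse, with points for mice and black bars for the mean of each diet. For Igfbp4 over Igfbp2 the Low AA mice lie at -0.52 to 0.048 and the Control mice at 0.060 to 0.73, and the other pairs overlap. The share of gene pairs that do not overlap was not computed.

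The wider pathway was read from lists of genes by role. Of 26 other genes that carry the insulin signal, such as subunits of phosphoinositide 3-kinase and substrates of AKT, 24 were listed and 0 passed adjustment in limma, with 2 at an unadjusted p under 0.05, against 11.8% of all genes. Their median log2 difference was 0.057. Prkcz, an atypical protein kinase C, had a log2 difference of -0.49 (limma adjusted p = 0.258). Pik3r2, a regulatory subunit of phosphoinositide 3-kinase, had 392 to 464 in Low AA and 498 to 541 in Control mice, without overlap, as in 6.81% of all genes, and a log2 difference of -0.27 (limma adjusted p = 0.316). Foxo4, a further forkhead factor, had -0.21 (limma adjusted p = 0.454).

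Among genes that restrain the signal, including receptor phosphatases, adaptors that block the receptor and lipid phosphatases, 20 of 21 were listed and 0 passed adjustment. In limma 0 had an unadjusted p under 0.05, against 11.8% of all genes. The median of the list was -0.0047. The smallest p belonged to Phlpp1, a phosphatase of AKT, with a log2 difference of 0.31 (limma adjusted p = 0.475), Trib2, a pseudokinase, with 0.35 (limma adjusted p = 0.522), and Ptpn2, a tyrosine phosphatase, with 0.21 (limma adjusted p = 0.538).

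All 19 genes listed as induced in fasting or by FOXO1 were in the table, and 0 passed adjustment, with 4 at an unadjusted p under 0.05, all of them with estimates above 0, against 11.8% of all genes at that p. With a mouse left out that count ran from 2 to 6. It was 2 without H1126 (9.26% of all genes), H817 (7.84%) or F7111 (13.3%), and 6 without F129 (10.6%). The median log2 difference of the 19 genes was 0.16, with 12 of 19 above 0, against 50.5% of all genes above 0. G6pc, the glucose 6-phosphatase that releases glucose from liver, had 46361, 29766, 21527 and 37218 in H1126, H828, H817 and H1315, and 26518, 17713, 14286 and 22882 in F129, F2212, F7111 and F2110. The diets overlapped through H817, which lay under F129 and F2110, and the log2 difference of G6pc was 0.71 (limma adjusted p = 0.282). Pdk4, which holds back glucose oxidation in fasting, had 2889, 5599, 3039 and 1102 in the Low AA mice and 2419, 670, 545 and 1265 in the Control mice, with a log2 difference of 1.40 (limma adjusted p = 0.324). Pnpla2, a triglyceride lipase, had 0.38 (limma adjusted p = 0.197), with 1 Control mouse, F2110, above the lowest Low AA mouse. Insig2, an inhibitor of lipogenic gene activation, had 0.53 (limma adjusted p = 0.389), with F2212 lowest at 9523. Pck1, the gluconeogenic enzyme, had 105397 to 146791 in Low AA and 127330 to 156026 in Control mice, with a log2 difference of -0.13 (limma adjusted p = 0.797).

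The mice that were low for Igfbp1 were also low for part of this list. F2212 and F7111, the lowest for Igfbp1, were the lowest for Pdk4 and for G6pc as well, whereas for Ppargc1a, a coactivator of gluconeogenic genes, F2212 had 465 and F7111 had 1828. Pck1 was at 127330 and 143323 in these mice, within the range of the others.

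**Figure D5:**
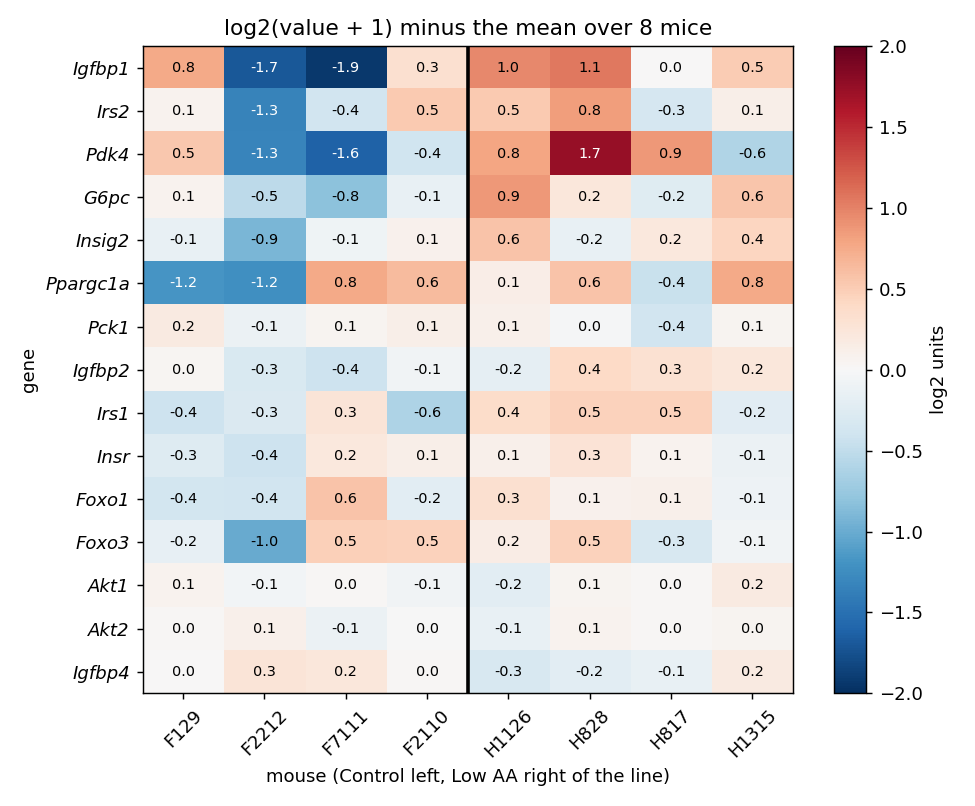
Log2(value + 1) of each gene in each mouse minus its mean over the 8 mice (colour and printed number, log2 units), for the 10 genes and 5 genes of the fasting list, with Control mice left of the line and Low AA mice right of it. F2212 and F7111 are at -1.69 and -1.93 for Igfbp1 and at -1.32 and -1.61 for Pdk4, while the rows of Akt1 and Akt2 are close to 0 throughout.

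Genes that insulin induces in liver, those of glucose use and lipid synthesis, were listed for 11 of 12, with 0 passing adjustment. In limma 0 had an unadjusted p under 0.05, against 11.8% of all genes. The median of the list was -0.13, with 3 of 11 above 0, against 50.5% of all genes. With a mouse left out the median ran from -0.15 without F2110 to -0.0013 without F7111, where 5 of 11 were above 0. Elovl6, an elongase, had a log2 difference of 0.44 (limma adjusted p = 0.424), Acaca, acetyl-CoA carboxylase, had 0.31 (limma adjusted p = 0.533), and Pklr, pyruvate kinase, had -0.22 (limma adjusted p = 0.65).

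Of 17 other genes of the IGF system 10 were listed, 0 passed adjustment and 2 had an unadjusted p under 0.05, against 11.8% of all genes. Their median was -0.053. Igf2bp2, an RNA binding protein of the Igf2 message, had 141, 98, 114 and 88 in Low AA and 76, 45, 52 and 72 in Control mice, without overlap, as in 6.81% of all genes, and a log2 difference of 0.85 (limma adjusted p = 0.146). Igfbp5 had 154 to 384 and 339 to 366, with a log2 difference of -0.59 (limma adjusted p = 0.374), and Ghr, the growth hormone receptor, had -0.28 (limma adjusted p = 0.457). Igf1, the main ligand that these binding proteins carry, had 12790 to 15308 in Low AA and 9641 to 15620 in Control mice, with a log2 difference of 0.20 (limma adjusted p = 0.65).

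Igfbp1 and Igfbp2 each lie beside another IGF binding protein gene. Igfbp1 and Igfbp3 end 3539 bases apart on chromosome 11 and Igfbp2 and Igfbp5 end 5457 bases apart on chromosome 1, each pair on opposite strands. Igfbp3, the main carrier of IGF1 in blood, had 422 to 580 in Low AA and 369 to 744 in Control mice, with a log2 difference of -0.19 (limma adjusted p = 0.776), against 1.27 for Igfbp1. Igfbp5 had -0.59, against 0.38 for Igfbp2. In both pairs the estimates had opposite signs, and none of the 4 passed.

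The genes most alike to a member were taken as those with the highest Pearson's r of log2(value + 1) over the 8 mice among all other genes, as a description, since the mice share the diet contrast and the best of many genes is high by selection. For Igfbp1 they were Abtb2 (r = 0.965), Hnrnpa1 (r = 0.955) and Sema6a (r = 0.948), and Irs2 came 104th, with r = 0.831. For Irs2 they were Cpeb2 (r = 0.954), Ahi1 (r = 0.952) and Calcrl (r = 0.948), with Igfbp1 in place 103. For Insr they were Nr2c2 (r = 0.997), Usp34 (r = 0.995) and Btbd7 (r = 0.987). For Foxo1 they were Foxj3 (r = 0.968), Usp7 (r = 0.960) and Aplp2 (r = 0.959). For Igfbp2 they were Hsd17b13 (r = 0.969), Slc27a2 (r = 0.958) and Igbp1 (r = 0.949), and for Igfbp4 they were Hsf4 (r = 0.990), Acy1 (r = 0.967) and Syngr2 (r = 0.959). Among these 18 genes limma adjusted p values for the diet ran from 0.279 for Hnrnpa1 to 0.979 for Aplp2, and 0 passed. Every gene named for Insr, Irs2 and Foxo1 was lowest in F2212, as were these members. Every gene named for Igfbp1 and Igfbp2 was lowest in F7111, as were those members. The part of these single Control mice in the r values was not tested.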

How the data were processed

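Poly(A) RNA from 8 livers was sequenced as stranded libraries, 1 per mouse. The submitters' processing notes name STAR 2.5.0a, RSEM 1.2.6, edgeR 3.10.5 and the mm10 build, without stating their roles. The authors deposited a signal per gene and mouse, a read count scaled between mice by a method not given in the sources used here and rounded, with genes of low expression absent. The deposited signed fold change, a score, and the deposited FDR, a q-value, hold the authors' own comparison and were not used. Since the values are scaled, exact depth is unknown and count models were not run. The model was limma 3.58.1 (R 4.3.3) on log2(value + 1), using its mean-variance trend, no covariates and Benjamini-Hochberg adjustment over all 11784 genes, after checks on simulated data. No gene failed the filter, a value of 1 or more in 4 or more mice. Values near 0 are compressed by the pseudocount. A single factor per mouse would affect all its genes alike, but whether the scaling was of that kind is not known. How reads shared by related or overlapping genes were split is not known either.

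The members, gene lists, markers, motifs and tests were chosen with earlier results of these data known. Named genes were the members, the 3 genes of smallest p in each pathway list, called genes, and the 3 genes most alike to 6 members. Insig2, Pck1, Ppargc1a, Igf1, Igfbp3, Col1a1 and the motifs were chosen after values were seen. Alternatives were pseudocounts of 0.1 and 5, no filter, the 8000 genes of highest mean, equal column totals or medians, no trend, robust moderation and each mouse left out. Gene positions and lengths are from GENCODE on GRCm38, the same assembly as mm10, and promoters from RefSeq on GRCm38.p6. Figures were drawn with matplotlib 3.10.9. Mice were group housed and the labels do not say which shared a cage. The p-values set the diet difference against the spread between mice within diets. They take the 8 mice as independent, so any effect of a shared cage is not allowed for.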

Additional observations from a re-analysis of the deposited data

Results flagged for a closer look

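For Irs1, Low AA mouse H1315 lay far below the other Low AA mice, with 742 scaled read counts against 1113 to 1194, and its gap to the nearest of them was 0.852 of the range of the diet on the log2 scale. Of 32 groups of 4 mice examined, over the 10 genes and 6 ratios in each diet, this was the 1 in which a mouse stood apart in this way, and chance gives about 1 in 20 groups.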

How the results depend on the processing

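No member passed an adjusted p under 0.05 in limma under any of the 16 alternatives run, the 8 that leave out a mouse included. The number of all genes called, 47, was 19 among the 8000 genes of highest mean, 30 without the mean-variance trend and 16 to 77 with a mouse left out, with 77 without F2212, 29 without F129, 21 without H1126, 19 without H828 and 16 without H817. The cause was not tested. Akt2 had a log2 difference of 0.00055 with equal column totals and 0.013 with equal medians. With a mouse left out, Akt2 ran from -0.042 to 0.045, Akt1 from -0.033 to 0.094, Foxo3 from -0.20 to 0.30 and Aplp2 from -0.0087 to 0.051, so their signs are not settled. The other 7 members kept their sign in every alternative run. Igfbp1 ran from 0.84 to 1.73 and Irs2 from 0.22 to 0.84. The difference in log2 Igfbp4 over Igfbp2 stayed between -0.75 and -0.52 with a mouse left out. No paired analysis was possible because the mouse codes are not shared between the diets. With 4 mice per diet the interval of Irs2, from -0.25 to 1.39 on the log2 scale, leaves both no difference and a large one possible.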
